A study of Homo sapiens with 2 samples.

Results

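CAL51 is a human breast cancer cell line, labelled as triple negative, a class of breast cancer defined by the lack of oestrogen receptor, progesterone receptor and HER2 amplification. The cells described here are the 1346 barcodes of the CAL51 library whose barcode sequence did not also occur in the library of MDAMB468, another triple-negative line of the series. They were chosen by barcode name and sequence alone, out of 1377 CAL51 barcodes and 1683 barcodes in the series. The 31 CAL51 barcodes with a sequence found in both libraries were left out. Each line was untreated as far as the labels say and was represented by 1 Drop-seq library. In Drop-seq each cell is caught in a droplet together with a bead, and its polyadenylated RNA is tagged near the 3′ end with a sequence for the cell (the barcode) and a sequence for the molecule (the UMI), so that UMIs count captured molecules. The labels name no separate cultures, so the line has no replicate, and all values describe differences between barcodes of 1 library and carry no test.

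The 1346 barcodes held 16223444 UMIs. A barcode had between 2506 and 113702 UMIs, with a median of 8635 and quartiles of 5517.25 and 14222.5. Mitochondrial genes took a median of 4.25% of a barcode's UMIs (range 0.494% to 13.4%), and ribosomal protein genes a median of 12.3% (range 2.53% to 19.4%). The mitochondrial share was lower in deeper barcodes (Pearson r of -0.308 with the log2 total over barcodes). To compare barcodes of unequal depth, every barcode was reduced to 2500 UMIs, using the exact average over all ways of drawing them.

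Each of the 5 markers of the line was detected in 86.9% of barcodes or more. GSTP1, a glutathione S-transferase, was detected in all 1346 barcodes, against 2.94% of the 306 MDAMB468 barcodes, whose median total was 10016.5 UMIs. PDPN, a membrane mucin-like glycoprotein, was detected in 98.9% of the barcodes, MSX1, a homeobox factor, in 96.7%, VCAN, a matrix proteoglycan, in 92.1%, and GPC3, a cell-surface heparan sulfate proteoglycan, in 86.9%. Of 15 marker genes of MDAMB468, 11 were at 0 in the 1346 barcodes, KRT7 and KRT5 among them, and the 15 together had 30 UMIs (1.85 CPM, that is UMIs per 1000000 UMIs), spread over 25 barcodes. The hormone receptor genes ESR1 and PGR had 0 and 1 UMIs, and ERBB2, which encodes HER2, had 262 UMIs in 16.5% of barcodes. KRT5, KRT14 and TP63, which mark basal breast epithelium, had 0 UMIs, which with 1346 barcodes allows a share of up to 0.223% of barcodes with a UMI. Some epithelial and some mesenchymal genes were detected, and others of both lists were at or near 0. KRT18 was detected in 96.0%, KRT8 in 90.2% and EPCAM in 64.8% of barcodes, while KRT19 was detected in 12.9%, CDH1, the epithelial cadherin, had 7 UMIs in all, GRHL2 had 2, and ESRP1 and OVOL1 had 0. The neural cadherin CDH2 was detected in 52.7% of barcodes, the repressor ZEB1 in 44.0% and the intermediate filament gene VIM in 66.6%, while the matrix gene FN1 was detected in 4.46%, ZEB2 had 8 UMIs, and SNAI2 and THY1 had 0.

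Cells of a clonal culture differ in cell cycle stage, in stress and secretory load, and in slower states that persist over divisions. In counts of molecules, a gene that every cell holds at the same share varies only by sampling, and its variance is close to its mean. Genes regulated by the same programme vary together between cells, and a chromosome present in different copy number in some cells moves many of its genes together.

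The most abundant transcripts were those of translation, redox and iron handling, chaperones and the cytoskeleton. Levels are UMIs per gene, 1 per molecule, and are not divided by transcript length. The 10 most abundant genes held 6.27% of all UMIs, the top 50 held 15.8% and the top 500 held 47.9%. MT-RNR2, the large mitochondrial ribosomal RNA, came first with 334213 UMIs (20601 CPM), and of the top 50 genes 6 were mitochondrial, 23 encoded ribosomal proteins and 21 were others. All mitochondrial genes summed to 4.14% of UMIs and ribosomal protein genes to 12.4%. Outside those classes the order was led by EEF1A1, the elongation factor that brings tRNA to the ribosome, at 5413 CPM. GSTP1 followed at 5263 CPM and FTH1, the heavy chain of the iron store ferritin, at 5249 CPM. The nuclear long noncoding RNA MALAT1 had 5029 CPM, the actin-binding peptide TMSB4X 5005 CPM and the ferritin light chain FTL 4196 CPM. GSTP1 and FTH1 differed by less than counting error (95% Poisson intervals of 5228 to 5299 CPM and 5214 to 5285 CPM), as did MALAT1 and TMSB4X, so neither order can be read. These intervals leave out the spread between barcodes. The order of other genes of close level is therefore also uncertain. Next came PTMA (4179 CPM), the poly(A)-binding protein PABPC1 (3823 CPM), the chaperones HSP90AB1 (3423 CPM), HSP90B1 (2872 CPM) and HSP90AA1 (2766 CPM), the glycolytic enzyme GAPDH (3294 CPM), the nucleolar protein NPM1 (2808 CPM), the histone H4C3 (2670 CPM) and ACTB (2639 CPM).

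The abundant genes differed in how evenly the barcodes held them. The Fano factor, the variance of the thinned counts over their mean, is near 1 for sampling alone and rises with the mean of a gene. It was therefore divided by the median Fano factor of the 100 genes nearest in mean, giving a Fano ratio. Among 4256 genes with a mean of at least 0.1 UMIs per barcode at 2500 UMIs, 90% had a ratio between 0.954 and 1.17. A ratio of at least 1.5 was reached by 69 genes (1.62% of 4256), and a ratio of at least 2 by 29 (0.681%). The 69 include the mitochondrial ribosomal RNAs MT-RNR2 (ratio 9.74) and MT-RNR1 (2.57). Just inside the limit lay H1-2 (1.506), DSTN (1.503) and ID1 (1.502), and just outside it B2M, MYH10 (both 1.49) and FOS (1.48). The most abundant genes share a single reference median, because fewer than 100 genes have so high a mean, so the excess CV2 is given as well. This is the squared coefficient of variation of a gene's share between barcodes after sampling noise is taken out, so it can be compared between genes of different level.

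**Figure D1:**
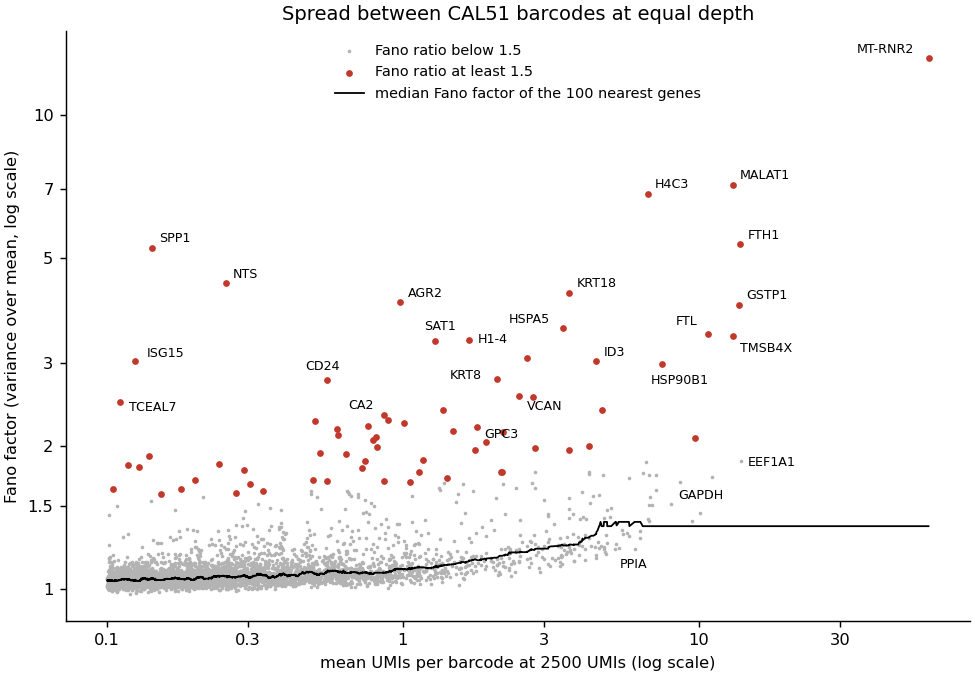
Fano factor against mean UMIs per barcode at 2500 UMIs for 4256 genes, both axes on log scales. The 69 genes with a Fano ratio of at least 1.5 are in red, and the line is the median Fano factor of the 100 genes nearest in mean. Abundant genes lie both far above the line (MALAT1, H4C3, FTH1) and close to it (GAPDH, PPIA).

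Of the abundant genes, MALAT1, FTH1, GSTP1, FTL, TMSB4X, HSP90B1 and H4C3 were also among the 20 highest Fano ratios. EEF1A1, close to GSTP1 in level, had from 9.81 to 138 UMIs per 10000 in a barcode, with a median of 53.9. GSTP1 had from 7.75 to 214 UMIs per 10000, with a median of 50.7. The medians of these genes were alike, and the barcodes of GSTP1 lay farther apart, with an excess CV2 of 0.219 against 0.0628 for EEF1A1. FTH1 ranged from 7.16 to 305 UMIs per 10000 around a median of 47.6 (Fano ratio 3.94, excess CV2 0.315). MALAT1 ranged from 3.29 to 356 around a median of 44.2 and had the highest ratio of the genes named by rule, 5.26, with an excess CV2 of 0.471. MALAT1 was higher in barcodes with a higher mitochondrial share (r of 0.318), a measure related to RNA quality, and the part of that share in its spread was not tested.

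The steadiest of the well-measured genes lay below the median of their neighbours in mean. With a mean of at least 2 UMIs, the 10 lowest Fano ratios ran from 0.878 to 0.927. Among them were PPIA, a peptidyl-prolyl isomerase, SNRPD2, a spliceosome core protein, HNRNPK, an RNA-binding protein, and NAP1L1, SUMO2, RACK1, NDUFA4, HINT1 and TMA7. PPIA ranged from 2.99 to 55.5 UMIs per 10000, with a median of 24.0 and an excess CV2 of 0.0362. SNRPD2 had an excess CV2 of 0.0281 and HNRNPK of 0.0307. The median ratios of the 77 ribosomal protein genes and the 36 nuclear genes of oxidative phosphorylation were 0.962 and 0.968, and 0 of either list reached 1.5, which is near the share of 1.62% over all genes.

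**Figure D2:**
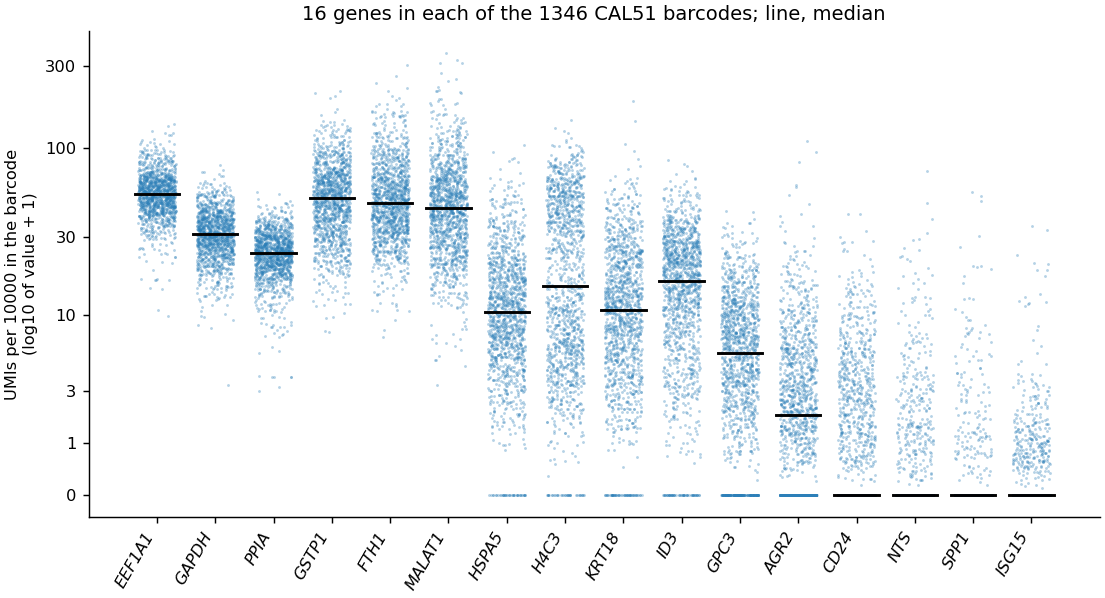
UMIs per 10000 of 16 genes in each of the 1346 CAL51 barcodes, on a log10 scale of the value + 1, with the median as a line. EEF1A1, GAPDH and PPIA form narrow bands, H4C3 spreads over a lower and an upper cloud, and SPP1, NTS and ISG15 have a median of 0 with a few barcodes at 20 or more.

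Highly variable genes reached their ratios in different ways. SPP1, which encodes the secreted phosphoprotein osteopontin, was detected in 12.5% of barcodes, with a median of 0 and a maximum of 55.3 UMIs per 10000. The 13 barcodes with the highest SPP1 (1% of barcodes) held 45.9% of its summed level, and its excess CV2 was 30.1. NTS, the neuropeptide neurotensin, was detected in 23.3% of barcodes and reached 73.3 UMIs per 10000, with 30.1% of its level in its top 13 barcodes. ISG15, an interferon-induced ubiquitin-like protein, was detected in 23.03% of barcodes and had 37.2% of its level in its top 13 barcodes, up to 34.6 UMIs per 10000. TCEAL7, of the BEX and TCEAL family on chromosome X, was detected in 14.1% of barcodes, with 30.5% in the top 13. These genes were thus rare and locally high. For KRT18, H4C3, MALAT1, FTH1 and GSTP1 the top 13 barcodes held 5.92%, 4.09%, 4.80%, 3.66% and 2.93%, so their spread ran through the whole population. AGR2, an endoplasmic reticulum protein of secretory epithelia, lay between, with a median of 1.88, a maximum of 110.5 and 13.7% of its level in 13 barcodes. Since all cells of this library belong to 1 line, no cell type lacking these genes was at hand, and the part of free RNA in barcodes with a single UMI was not tested.

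H4C3 had a lower and an upper peak. It encodes histone H4, whose mRNA is made mainly during DNA replication. Because the library tags polyadenylated RNA, the counts of H4C3 and other histone genes cover only the mRNA caught that way. The share of histone mRNA caught was not measured. Its values ran from 0 to 146 UMIs per 10000, with a median of 15.1 and quartiles of 5.68 and 45.1. On a scale of doubling steps, 247 barcodes lay between 4 and 8 UMIs per 10000, 213 between 8 and 16, 160 between 16 and 32, and 363 between 32 and 64. In the 673 barcodes at or above the median total the same bins held 107, 85, 98 and 233 barcodes, so the low point moved to the bin from 8 to 16 and the upper peak stayed in place. KRT18, with a similar excess CV2 (0.883 against 0.869 for H4C3), had a single peak, with 253, 397, 300 and 124 barcodes over these bins. ID3 had a single peak between 16 and 32 UMIs per 10000 (498 barcodes).

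Gene pairs were compared by the Pearson r of the thinned counts over the 1346 barcodes. Points in such a correlation share the library, the depth and the fixed total, which makes large fractions oppose each other. The median r over all 9054640 pairs was -0.000254, and 98% of pairs lay between -0.0351 and 0.0384. An r of at least 0.2 was reached by 369 pairs (0.00408%) and an r of -0.2 or lower by 14 (0.000155%). Among the 50 genes with a mean of at least 0.5 and a Fano ratio of at least 1.5, 45 of 1225 pairs (3.67%) reached 0.2 and 3 (0.245%) were at -0.2 or lower. Sampling noise pulls r of UMI counts towards 0, and where both Fano factors were at least 1.2 a value corrected for that noise is given too.

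The closest pair joined the keratins of simple epithelia. KRT18 (chromosome 12, 52948871 to 52952901) ranged from 0 to 187 UMIs per 10000 with a median of 10.8, and KRT8 (chromosome 12, 52897187 to 52949954) from 0 to 87.7 with a median of 6.04. Their r was 0.676, or 0.968 after noise correction. Their proteins assemble as partners into the same filament. The genes lie side by side on opposite strands and overlap at their ends in GENCODE release 29 (build GRCh38). The sources used here do not say whether the counting used the strand, so some of their reads may be shared. EPCAM did not follow the keratins, and the median r among KRT18, KRT8 and EPCAM was -0.0447. KRT18 was higher with the cyclin CCND1 (r of 0.245) and lower with AP1S2, a subunit of a clathrin adaptor (-0.208, corrected -0.325). KRT8 had an r of -0.198 with AP1S2. TCEAL7 had its highest r with KRT18 (0.170), but that fell to 0.0663 in the barcodes below the median total.

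Other close pairs were also made of related genes. The ferritin chains FTH1 and FTL had an r of 0.460 (corrected 0.605), and FTL ranged from 2.64 to 321 UMIs per 10000 with a median of 39.4. ID3 and ID1, inhibitors of helix-loop-helix factors and targets of BMP signalling, had an r of 0.400 (corrected 0.743). ID3 had r of 0.327 with ID2 and 0.167 with ID4, and these ID genes lie on 4 different chromosomes. The first gene outside the family was H4C3 (0.154). APOE and APOC1, lipid-carrier genes near each other on chromosome 19, had an r of 0.419 (corrected 0.756). They had medians of 1.46 and 1.93 UMIs per 10000 and maxima of 30.3 and 41.9. The next partner of APOE was GSTP1 (0.181) and the next of APOC1 was ANXA4 (0.190). CCN1 and CCN2, matricellular genes of the immediate early list, had an r of 0.251. The rare genes SPP1 and NTS had weaker partners, with r of 0.133 for SPP1 and FTL and 0.211 for NTS and DSTN, an actin-severing protein.

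ISG15 and B2M, the light chain of MHC class I, were high together in few barcodes. Their r was 0.379 (corrected 0.750), and their rank correlation on unthinned values was 0.0559. ISG15 was at 0 UMIs in most barcodes, whereas B2M was detected in 79.8%, with a median of 2.02 and a maximum of 50.7 UMIs per 10000. The summed MHC class I genes and the summed interferon genes had an r of 0.335. Of the 4 measured interferon genes, ISG15 alone passed a Fano ratio of 1.5.

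**Figure D3:**
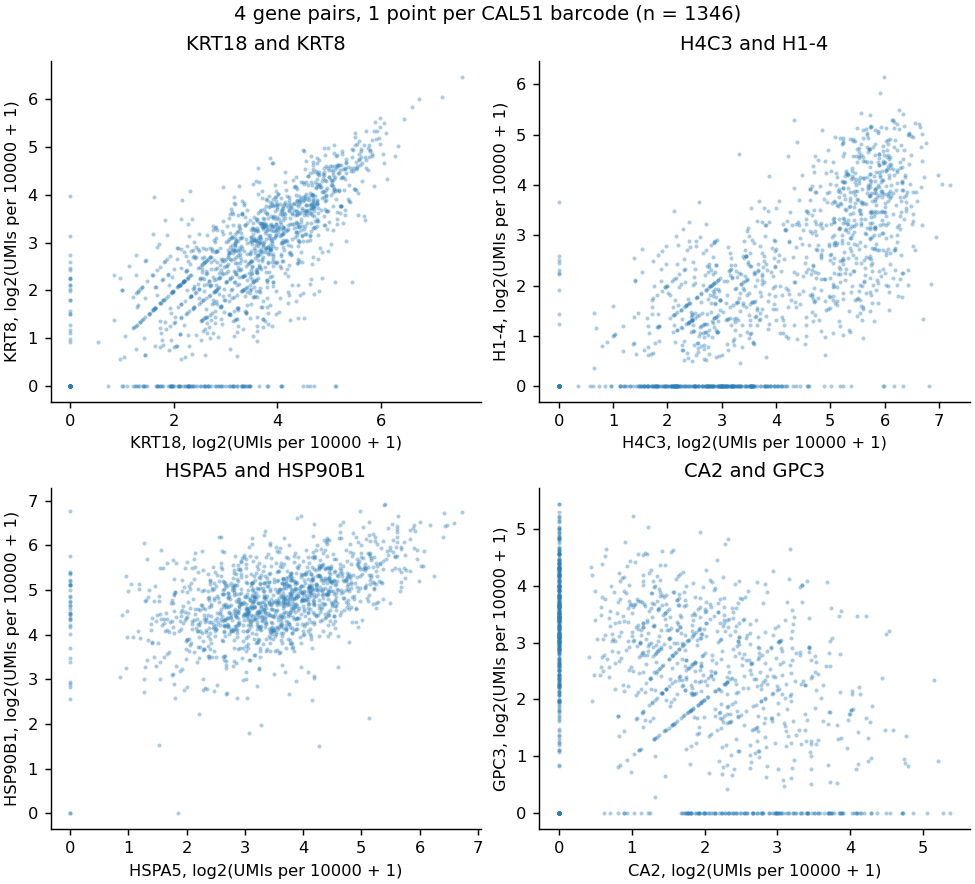
UMIs per 10000 on a log2 scale of the value + 1 for 4 gene pairs, 1 point for each of 1346 barcodes; points on an axis have 0 UMIs of that gene. KRT18 and KRT8 rise together over their whole range, H4C3 and H1-4 form a low and a high cloud, HSPA5 and HSP90B1 rise together, and GPC3 falls as CA2 rises.

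Variable genes fell into 5 groups. Of the 150 highest Fano ratios (down to 1.23), 38 genes joined 5 groups of at least 5 genes with a mean r above 0.15. The groups were formed from these values, so the correlation inside them is a description.

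**Figure D4:**
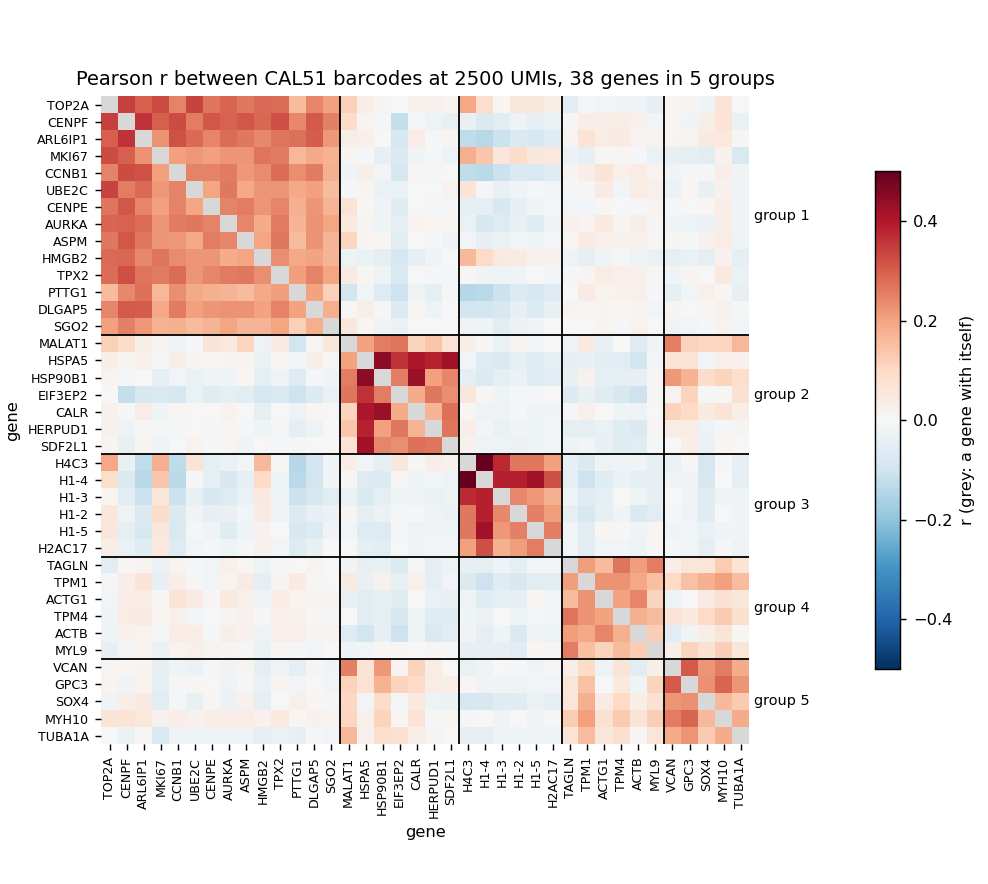
Pearson r at 2500 UMIs between the 38 genes of the 5 co-varying groups, with group borders as black lines. Group 1 holds mitotic genes, group 2 chaperones with MALAT1 and EIF3EP2, group 3 histones and group 4 actin cytoskeleton genes. Group 5 holds VCAN, GPC3, SOX4, MYH10 and TUBA1A. Values of r run from 0.118 to 0.362 inside group 1 and from 0.179 to 0.535 inside group 3.

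The largest group held 14 mitotic genes: TOP2A, CENPF, ARL6IP1, MKI67, CCNB1, UBE2C, CENPE, AURKA, ASPM, HMGB2, TPX2, PTTG1, DLGAP5 and SGO2. Their median r was 0.242 (corrected 0.680). TOP2A is the topoisomerase that untangles replicated DNA, CENPF and CENPE act at the kinetochore, CCNB1 and AURKA drive mitosis, and UBE2C belongs to the ubiquitin pathway that ends it. The summed group had from 0 to 218 UMIs per 10000 in a barcode, with a median of 45.4 and quartiles of 27.4 and 69.9. TOP2A had a Fano ratio of 1.91, CENPF 1.71 and ARL6IP1 1.53, and these were the 3 of 54 measured G2/M genes above 1.5. Among the measured G2/M genes the median r was 0.102, and 114 of 1431 pairs reached 0.2. Of 37 measured S-phase genes 0 passed a ratio of 1.5, near the share of 1.62% over all genes, and their median r was 0.0490, with 0.167 for PCNA and PCLAF as the highest.

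The histone group linked H4C3 with the linker histones H1-4, H1-3, H1-2 and H1-5 and with H2AC17, at a median r of 0.263 (corrected 0.618). H4C3 and H1-4 had the second highest r of the named pairs, 0.535 (corrected 0.691), and H1-4 ranged from 0 to 70.1 UMIs per 10000 with a median of 3.31. All 6 genes lie on chromosome 6. H4C3 followed the S-phase genes PCLAF (r of 0.235) and RRM2 (0.210), and the summed group had an r of 0.209 with the summed S-phase list. H4C3 divided the mitotic group, with r of 0.193 for TOP2A and 0.180 for MKI67, but -0.143 for PTTG1 and -0.127 for CCNB1. The sums of groups 1 and 3 had an r of 0.00471. With the cell cycle sums held constant, the partial r of H4C3 and H1-4 was 0.521.

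Chaperones of the endoplasmic reticulum formed the second group, with HSPA5, HSP90B1, CALR, HERPUD1 and SDF2L1 beside MALAT1 and the processed pseudogene EIF3EP2. HSPA5 is the main luminal chaperone and a classic target of the unfolded protein response, HSP90B1 is the luminal HSP90, CALR is a lectin chaperone, HERPUD1 takes part in degradation of misfolded proteins and SDF2L1 is a luminal partner of HSPA5. HSPA5 ranged from 0 to 104 UMIs per 10000 (median 10.4), HSP90B1 from 0 to 121 (median 26.4) and CALR from 0 to 66.2 (median 12.9). The r of HSPA5 was 0.446 with HSP90B1 (corrected 0.645), 0.418 with SDF2L1 (0.822), 0.405 with CALR (0.682) and 0.384 with HERPUD1 (0.707). Disulfide isomerases and co-chaperones of the same compartment followed from outside the group, with r of 0.348 for HSP90B1 and PDIA3, 0.315 for HSP90B1 and PDIA4, and 0.284 for HSPA5 and DNAJC3. MALAT1 had an r of 0.202 with HSPA5 and 0.256 with HSP90B1, but 0.140 with HERPUD1, 0.113 with CALR and 0.0710 with SDF2L1. Outside the group MALAT1 had an r of 0.252 with VCAN. Its highest was 0.266 with EIF3EP2, whose counts may hold reads of its parent gene. EIF3EP2 itself had higher r with HSPA5 (0.362) and KIT (0.297) than with MALAT1, and the source of its counts was not tested. The summed group, in which MALAT1 was the most abundant member, had an r of 0.256 with the mitochondrial share, and HSPA5 alone 0.0320. With the log2 total and the mitochondrial sum held constant, the partial r of HSPA5 and HSP90B1 was 0.448. The heat shock and chaperone list had 3 of 18 measured genes above a ratio of 1.5, which were HSPA5, HSP90B1 and CALR. The summed S-phase list had an r of -0.332 with the summed group, MALAT1 included. How much of that r came from MALAT1 was not tested.

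Because these chaperone genes lie on different chromosomes and varied together, the 250 bases before the annotated start of each gene are shown, from RefSeq promoters on GRCh38.p14, 5′ to 3′ on the strand of the gene. Capitals mark the endoplasmic reticulum stress element, searched as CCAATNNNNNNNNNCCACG on either strand, and the related element II, searched as ATTGGNCCACG on either strand. HSPA5 is at chr9:125241344-125241593 on the minus strand, HSP90B1 at chr12:103930160-103930409, CALR at chr19:12938359-12938608, HERPUD1 at chr16:56931892-56932141 and SDF2L1 at chr22:21642052-21642301, all on the plus strand except HSPA5.
HSPA5: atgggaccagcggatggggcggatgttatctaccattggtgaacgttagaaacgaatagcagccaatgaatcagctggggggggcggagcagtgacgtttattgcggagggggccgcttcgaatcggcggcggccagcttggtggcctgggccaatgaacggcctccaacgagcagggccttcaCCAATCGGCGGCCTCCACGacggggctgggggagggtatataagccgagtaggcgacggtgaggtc
HSP90B1: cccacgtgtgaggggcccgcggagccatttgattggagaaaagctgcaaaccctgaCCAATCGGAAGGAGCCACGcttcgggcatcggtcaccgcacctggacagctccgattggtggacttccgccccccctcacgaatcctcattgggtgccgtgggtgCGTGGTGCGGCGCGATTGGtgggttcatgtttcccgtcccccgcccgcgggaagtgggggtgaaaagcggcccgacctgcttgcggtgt
CALR: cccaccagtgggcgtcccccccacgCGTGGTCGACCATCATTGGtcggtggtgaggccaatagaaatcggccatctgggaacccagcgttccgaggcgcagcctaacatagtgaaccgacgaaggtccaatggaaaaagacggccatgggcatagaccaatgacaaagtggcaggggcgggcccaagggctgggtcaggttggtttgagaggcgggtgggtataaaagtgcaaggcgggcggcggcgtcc
HERPUD1: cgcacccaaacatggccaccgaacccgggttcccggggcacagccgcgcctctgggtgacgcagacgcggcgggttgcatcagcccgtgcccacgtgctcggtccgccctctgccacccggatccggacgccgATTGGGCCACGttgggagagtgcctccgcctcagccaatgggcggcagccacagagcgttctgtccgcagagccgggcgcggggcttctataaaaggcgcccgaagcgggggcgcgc
SDF2L1: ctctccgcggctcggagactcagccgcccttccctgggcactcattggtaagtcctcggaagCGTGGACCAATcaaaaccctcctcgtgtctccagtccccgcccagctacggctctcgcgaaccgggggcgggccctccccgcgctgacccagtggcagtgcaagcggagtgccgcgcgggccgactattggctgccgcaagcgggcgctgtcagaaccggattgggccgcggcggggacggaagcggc
The first element was in HSPA5 (bases -66 to -48 from the start), at 2 places in HSP90B1 (-194 to -176, and -89 to -71 on the opposite strand) and in CALR (-225 to -207, opposite strand). Element II was in HERPUD1 (-117 to -107) and SDF2L1 (-188 to -178, opposite strand). Of all 35116 promoters of this length, 26 (0.0740%) held the first element and 18 (0.0513%) the second; among the 3520 measured genes with a promoter in the table the counts were 8 and 9. So 5 of the 6 group members with a promoter held 1 of the elements, MALAT1 being the exception, and EIF3EP2 had no entry. None of the promoters found for the other 4 groups held either. Of 2 shorter motifs also searched on either strand, TTTGAA was in 12.7% of the measured genes and CCAAT, the start of the first element, in 43.6%. TTTGAA was in 4 of 10 group 1 genes with a promoter and 1 of 5 in group 3. It was in 0 of 6 in group 2, 0 of 3 in group 4 and 0 of 4 in group 5. For groups 1 to 5 in order, CCAAT was in 9 of 10, 5 of 6, 5 of 5, 1 of 3 and 3 of 4. A match is a run of letters and was not tested for binding.

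The fourth group held genes of the contractile actin cytoskeleton: TAGLN, TPM1, ACTG1, TPM4, ACTB and MYL9. Their median r was 0.201 (corrected 0.452). TAGLN (transgelin, an actin-binding protein) had a Fano ratio of 1.84 and TPM1 (a tropomyosin) 1.76, while the actins ACTG1 (1.38) and ACTB (1.29) stayed below 1.5. The summed group ran from 13.3 to 194 UMIs per 10000, so no barcode lacked it. TMSB4X, which binds actin monomers, had its highest r with TAGLN (0.182) and TPM1 (0.169).

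The fifth group joined VCAN, GPC3, SOX4, MYH10 and TUBA1A, at a median r of 0.222 (corrected 0.5001). GPC3 ranged from 0 to 42.5 UMIs per 10000 with a median of 5.57, and VCAN from 0 to 90.8 with a median of 8.07. GPC3 had its highest r with VCAN (0.308), followed by the nonmuscle myosin MYH10 (0.290), the cartilage collagen COL2A1 (0.266) and the growth factor MDK (0.246). The sum of the group was lower where ribosomal protein genes were higher (r of -0.394) and higher where group 2 was higher (0.266). The ribosomal protein sum also had an r of -0.321 with the collagen and matrix list, of -0.281 with group 2 and of -0.278 with group 1. Within group 2, VCAN had an r of 0.252 with MALAT1, 0.215 with HSP90B1 and 0.0672 with HSPA5. For GPC3 these were 0.117, 0.174 and 0.0723. How much of the r of the group 2 sum came from MALAT1 was not tested.

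CA2 and GSTP1 were among the genes with a negative r with GPC3. GPC3 and the carbonic anhydrase CA2 formed the most negative of the named pairs, with an r of -0.246 (corrected -0.440). On log2 values of unthinned counts it was -0.446. CA2 ranged from 0 to 40.2 UMIs per 10000 with a median of 1.92. GPC3 also had r of -0.237 with the peroxidase PRDX1, -0.214 with the cytochrome oxidase subunit COX6C and -0.203 with GSTP1. GSTP1 in turn was higher with FTH1 (0.305), PRDX1 (0.279), COX6C (0.255) and PDPN (0.220), and lower with MYH10 (-0.245) and VCAN (-0.183). CA2 was higher with the surface glycoprotein CD24 (0.228), PRDX1 (0.181) and COX6C (0.177), and lower with VCAN (-0.186). GSTP1 was not among the 8 highest partners of CA2, the last of which was S100A10 (0.148). The markers of the line thus did not move as a unit: among the 5 markers the median r was -0.0174, and 2 of 10 pairs reached 0.2, GPC3 with VCAN and GSTP1 with PDPN.

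The remaining highly variable genes had partners of their own. SAT1, the enzyme that starts polyamine breakdown, ranged from 0 to 62.0 UMIs per 10000 with a median of 2.14, and had r of 0.249 with MDK and -0.196 with APLP2, an amyloid precursor-like protein. CD24 was detected in 47.1% of barcodes, up to 41.2 UMIs per 10000, and had an r of 0.236 with the calcium-binding-family protein S100A10. AGR2 had its highest r with S100A11 (0.217), the annexin ANXA4 (0.211) and the aldo-keto reductase AKR1C1 (0.209).

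Gene lists chosen for pathways and cell states differed in how many members varied. Of all 4256 genes 1.62% passed a ratio of 1.5. Among lists with a larger share were the epithelial list (3 of 3 measured, of 15 genes), the CAL51 markers (3 of 5), the histones (4 of 8 measured, of 14), the mesenchymal list (4 of 10 measured, of 15), the iron and NRF2 genes (4 of 11 measured, of 18) and the collagens and matrix (3 of 8 measured, of 28). Mesenchymal genes ran from VIM (1.93) to CDH2 (1.01), and immediate early genes were led by CCN2 (1.94). The counts were 0 of 15 measured cholesterol synthesis genes, 0 of 13 glycolysis and hypoxia genes, 0 of 6 p53 targets and 0 of 6 metallothioneins, which in lists of this size is near the 1.62% of all genes. Of 13 measured genes of serine synthesis and the ATF4 response, DDIT4 (1.51) alone passed. Mitochondrially encoded protein genes had a median r of 0.173 over 78 pairs, the highest of the lists, while 0 of 13 passed a ratio of 1.5. Their sum had an r of 0.761 with the mitochondrial share, of which it is a part. Ribosomal protein genes had a median r of 0.102 over 2926 pairs, and nuclear genes of oxidative phosphorylation 0.0195 over 630 pairs. Levels differ between these lists, and r at a fixed depth is lower for genes of lower level. A gene of lower level also needs a larger excess CV2 to reach a Fano ratio of 1.5. The counts of genes that passed thus depend on level as well as on spread.

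Genes of chromosomes 18 and 20 varied together along the chromosome. For this, 4096 measured genes were used, without mitochondrial, ribosomal protein and variable genes (ratio of at least 1.5), of which 99.95% had a position in GENCODE release 29. Each chromosome's share of these UMIs was computed in every barcode, with a median of 5588 UMIs used. The excess CV of the share, its spread after sampling noise, was 17.2% for chromosome 18 (75 genes) and 14.2% for chromosome 20 (103 genes). The other 21 chromosomes went up to 10.6% (X), with a median over all 23 of 6.96% and a minimum of 3.94% (chromosome 1). The share of chromosome 18 ran from 0.932% to 3.17% with quartiles of 1.59% and 2.19%, and that of chromosome 20 from 1.11% to 5.04% with quartiles of 2.33% and 2.74%.

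**Figure D5:**
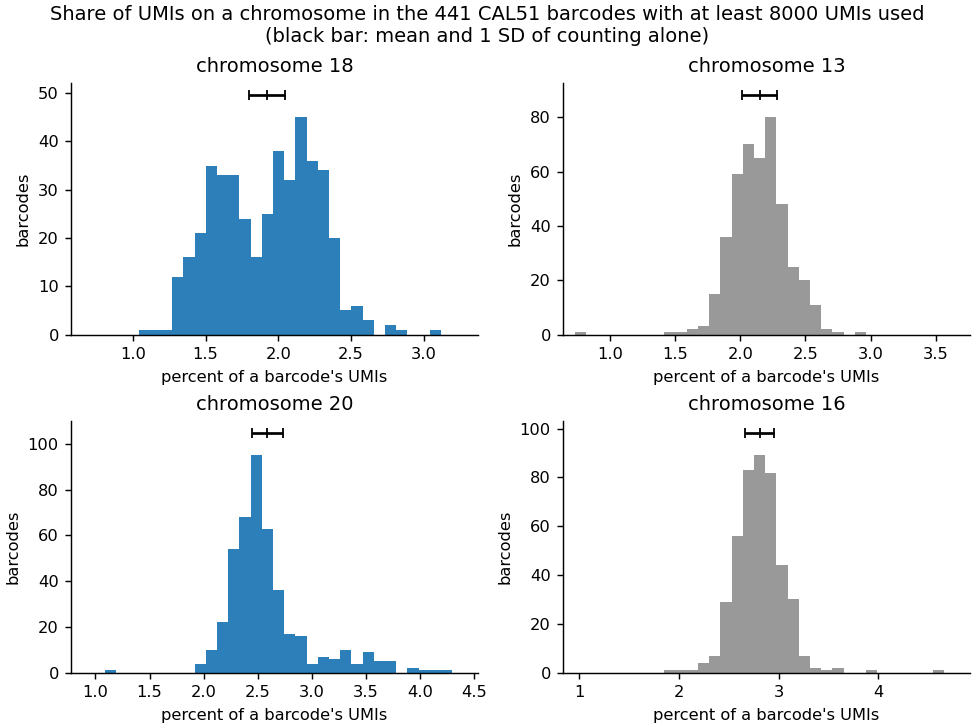
Share of UMIs on chromosomes 18, 13, 20 and 16 in the 441 barcodes with at least 8000 UMIs used; the black bar is the mean and 1 SD of counting alone. Chromosome 18 is broad with a dip between 1.8% and 2.0%, chromosome 20 has a peak near 2.5% and a tail up to 4.23%, and chromosomes 13 and 16 have a single peak.

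The distributions had different shapes. In the 441 barcodes with at least 8000 such UMIs, the chromosome 18 share had an upper peak with 102 barcodes between 2.0% and 2.2% and a lower plateau with 75 barcodes in each of the bins from 1.4% to 1.6% and from 1.6% to 1.8%, and 59 barcodes between 1.8% and 2.0%. Its SD was 0.343 percentage points, where counting alone gives 0.124. Chromosome 20 had 1 main peak, with 171 barcodes between 2.4% and 2.6%, and a tail in which 53 of 441 barcodes (12.02%) had at least 3.0%. Its SD was 0.384 percentage points against 0.143 from counting. The variance over counting variance was 7.66 and 7.21 for these chromosomes and at most 6.70 for the others (chromosome 10), with a median of 3.01 for the others.

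The spread was shared along each chromosome. For chromosome 18, 73 of 75 genes (97.3%) had a positive r with the summed rest of the chromosome, and for chromosome 20, 101 of 103 (98.1%), against 43.9% to 86.5% of genes on the others. Each chromosome's genes were also divided at the middle of their order along it. The sums of both sides had an r of 0.175 for chromosome 18 (corrected 0.757), of 0.152 for chromosome 20 (corrected 0.691), and between -0.0576 and 0.0795 for the others (corrected -0.172 to 0.580, the highest on X). On chromosome 18 the genes with the highest r with the rest were MYL12B, a myosin light chain on the short arm (3261479 to 3278431; r of 0.103, corrected 0.488), and ATP5F1A, an ATP synthase subunit on the long arm (46080248 to 46104334; r of 0.0881, corrected 0.522). The asparagine tRNA synthetase NARS1 (0.0853) and the thymidylate synthase TYMS (0.0800) followed. On chromosome 20 they were the proteasome subunit PSMA7 (0.109, corrected 0.517), the myosin light chain MYL9 (0.101), the ATP synthase subunit ATP5F1E (0.0827) and the spliceosomal protein SNRPB2 (0.0779, corrected 0.595). The shares of chromosomes 18 and 20 had an r of -0.211 with each other, the lowest of all chromosome pairs. The shares of chromosomes 18 and 20 had r of 0.0414 and 0.0170 with the log2 total, and of -0.0872 and -0.0692 with the mitochondrial share. DNA copy number was not measured, and these chromosomes were picked after their values were seen.

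Genes of other chromosomes went with these shares. With the chromosome 20 sum, SPARC (r of 0.240), COL2A1 (0.219), GPC3 (0.214) and GPX1 (0.168) were higher, and GSTP1 (-0.198), COX6C (-0.160), EEF1A1 (-0.157) and EPCAM (-0.144) were lower. GPC3, on the high side, also had a negative r with GSTP1 and COX6C, on the low side, in the pairs above. With the chromosome 18 sum, AP1S2 (0.173), YBX1 (0.132) and BCAT1 (0.122) were higher, and GPX1 (-0.201), COL1A2 (-0.191) and CD24 (-0.148) were lower. GPX1, a glutathione peroxidase on chromosome 3, and SPARC (-0.120 with chromosome 18) thus had opposite signs for the 2 chromosomes. Whether these genes follow the chromosomes or a state of the cells was not tested.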

How the data were processed

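UMI counts per gene and barcode were used as deposited by the authors, as a table without normalization. They came from STARsolo, per the submitters' processing notes, and its version, options, strand setting, genome build and annotation are not named there. Of 30796 features, 30730 had a symbol and 29416 a position in GENCODE release 29. The members and the gene lists were chosen with earlier results of these data known. Barcodes with a sequence also found in the MDAMB468 library were removed. No doublet caller was run, and leaving out barcodes above 3 times the median total was an alternative.

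Variance, mean and r were computed as exact expectations over thinning to 2500 UMIs, for genes with a mean of at least 0.1 (numpy 2.4.6 and pandas 2.3.3 under python 3.11.15, with scipy 1.17.1 for intervals). On simulated counts, 95% of 100 genes with an excess CV2 of 1 and 15% of 100 with 0.25 passed a Fano ratio of 1.5, and 0 of 4088 without excess did. The genes simulated with excess all had a mean of at least 0.5, so the 95% and 15% do not cover genes of lower mean. A gene with a mean near 0.1 needs a larger excess CV2 to reach the same ratio. The other 4088 genes were drawn without excess, whereas the median Fano factor of the 4256 measured genes was 1.06. For MALAT1, with a mean of 13.0 UMIs, a Fano factor of 7.14 gave a ratio of 5.26. The same excess CV2 gives a lower ratio where the genes nearest in mean vary more. The 95% and 15% may therefore be too high for the measured genes, and the rates with such neighbours were not tested. Correlations inside the line share library and depth, so no p-value was computed. Poisson intervals (95%) and the limit from 3 counts cover counting error only.

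Outside mitochondrial, ribosomal protein, clone-named and antisense symbols, genes were named by rule. The rule took the 15 most abundant, the 20 highest Fano ratios, the 10 lowest with a mean of at least 2, the best partner of each of the 20, the 5 most negative pairs, the 5 markers, and the highest and lowest of each list. A gene that the rule named is not reported here. Other genes, the chromosomes, the promoter motifs and the bins of level were picked after their values were seen. Alternatives changed depth, barcodes, thresholds, scale and the genes used. Features without a symbol stayed in the totals.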

Additional observations from a re-analysis of the deposited data

Results flagged for a closer look

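The 31 CAL51 barcodes left out, which no result above uses, held 338 UMIs of the 15 MDAMB468 markers (2499 CPM), with all 15 markers above 0 and from 3 to 25 UMIs per barcode. The 1346 kept barcodes held 30 such UMIs (1.85 CPM), with at most 3 in a barcode. Markers of CAL51 were present in the 31 barcodes too. GSTP1 had 310 UMIs and was detected in all 31, VCAN in 21, PDPN in 18, MSX1 in 15 and GPC3 in 12. Each of these was detected in at most 2.94% of MDAMB468 barcodes. The 31 barcodes thus held transcripts of markers of both lines. Keeping the 31 barcodes gave 74 variable genes in place of 69, of which 66 were among the 69.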

How the results depend on the processing

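The Fano ratio and r rise with depth by construction, so the counts depended on it. The 69 variable genes became 19 when barcodes were thinned to 1000 UMIs, 140 (with all 69 among them) in the 1071 barcodes with at least 5000 UMIs thinned to 5000, and 41 without mitochondrial and ribosomal protein genes at 1500 UMIs. A limit of 2 on the ratio left 29. The 45 pairs with r of at least 0.2 became 5, 248 and 16 under the first 3 of these settings. The 5 groups became 8 at 5000 UMIs, 1 at 1000 UMIs, 9 with a limit of 0.1 on the mean r and 3 with 0.2, and 9 in the barcodes at or below the median mitochondrial share. The other settings gave 58 to 74 variable genes, and no r of a named pair changed sign. The median r of 4 lists lay on both sides of 0 (CAL51 markers, APOE locus, glypicans and imprinted genes). Of the r of named pairs over all settings, 24 moved and 228 did not. The excess CV of chromosome 18 lay between 17.1% and 18.1% and that of chromosome 20 between 14.01% and 14.7%. The highest other chromosome lay between 10.4% and 10.9%. These ranges cover alternatives in the barcodes and genes used, all chosen after seeing the data. Partial r given depth and the mitochondrial sum, and counts split by mitochondrial share, were also added then. No paired analysis was possible because each line has 1 library. Genes under a mean of 0.1 UMIs at 2500 were not assessed for spread, and a low r between genes of low level was not detectable at this depth.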
